A study of Homo sapiens with 12 samples.

Results

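The MYC, MAX and MXD network is a set of basic helix-loop-helix leucine zipper transcription factors, and 10 of the 21357 genes annotated on the array were examined as its members in SW13 cells: MYC, MYCN, MYCL, MAX, MXD1, MXD3, MXD4, MXI1, MNT and MLX. The members were every probe set that the array's annotation maps to one of these symbols, which gave 34 of the 54675 probe sets. Of these, 22 passed a filter on low signals (3 or more of the 12 arrays not below their own median) and were tested, among 32622 tested probe sets in all. The 12 probe sets that were not tested were 9 of the 10 for MYCN and 1 each for MXD1, MXD4 and MLX, so MYCN was represented by 1 probe set only.

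SW13 is a human adrenal cortical carcinoma cell line that lacks BRG1, the ATPase encoded by SMARCA4 that drives SWI/SNF chromatin remodelling complexes. Expression was measured on Affymetrix U133 Plus 2.0 arrays in a pair of stable lines, SW13+pREP7+BRG1 (carrying BRG1 isoform C on the pREP7 plasmid) and SW13+pREP7 (the empty plasmid, called vector). Cells of each line received a UV dose of 10 J/m2 or a mock exposure and were harvested 6 hours later, with 3 arrays in each of the 4 groups, BRG1 UV, BRG1 mock, vector UV and vector mock. The comparisons asked what BRG1 changed without UV and after UV, what UV changed in each line, and whether the UV effect differed between the lines. Each genotype is 1 stable line, so all of its arrays are independent samples of the same line, and the p-values measure the spread among those samples. An effect of BRG1 cannot be told apart from other differences between the lines.

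MYC, MYCN and MYCL bind DNA only after pairing with MAX, and the pair activates genes through the E-box sequence CACGTG. The proteins MXD1, MXD3, MXD4 and MXI1, and the larger MNT, also pair with MAX at the same sequence but recruit SIN3 and histone deacetylases and repress, so that the balance of partners sets the output on genes for growth, ribosome production and metabolism. MLX is a MAX-like partner for MNT, for MXD1 and MXD4, and for the glucose-responsive factors MLXIP and MLXIPL.

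The promoters of the members show where the network could read its own E-box. RefSeq promoter windows on GRCh38.p14, covering 250 bases before to 50 bases after a gene start, were searched for 9 of the 10 members (12 windows). No MYC window was searched, so the counts below leave MYC out. CACGTG, a palindrome that reads the same on both strands, occurred in 3 of the 12 windows, those of MXD4, MNT and MLX, and in 7.256% of the 35116 promoter windows of the same length. Its first base lay at position -238 in MXD4, -193 in MNT and -50 in MLX, counted from the gene start. These 3 windows are printed with the E-box in capitals, and the window of MXD1, which holds none, is printed beside them because MXD1 and MXD4 were the members called between the lines without UV. All are written 5′ to 3′ along the gene's own strand.
MXD4, chr4:2262060-2262359, minus strand: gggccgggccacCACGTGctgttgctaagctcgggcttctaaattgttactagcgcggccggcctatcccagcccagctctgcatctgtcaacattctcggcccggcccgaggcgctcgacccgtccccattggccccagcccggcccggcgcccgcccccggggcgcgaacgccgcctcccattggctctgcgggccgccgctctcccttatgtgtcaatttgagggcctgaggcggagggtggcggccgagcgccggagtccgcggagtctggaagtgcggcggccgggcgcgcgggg
MNT, chr17:2401011-2401310, minus strand: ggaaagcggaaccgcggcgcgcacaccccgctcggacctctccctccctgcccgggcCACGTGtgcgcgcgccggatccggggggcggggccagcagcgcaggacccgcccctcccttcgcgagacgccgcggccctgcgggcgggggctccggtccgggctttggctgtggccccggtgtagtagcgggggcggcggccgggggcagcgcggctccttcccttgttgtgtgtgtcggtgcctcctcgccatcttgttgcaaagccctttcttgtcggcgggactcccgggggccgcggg
MLX, chr17:42566850-42567149, plus strand: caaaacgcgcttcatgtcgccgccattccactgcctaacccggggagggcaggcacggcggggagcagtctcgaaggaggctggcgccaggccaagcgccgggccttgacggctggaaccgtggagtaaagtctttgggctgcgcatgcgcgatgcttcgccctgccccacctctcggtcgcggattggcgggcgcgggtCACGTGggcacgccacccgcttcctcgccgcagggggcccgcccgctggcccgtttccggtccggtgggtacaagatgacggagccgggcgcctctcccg
MXD1, chr2:69914859-69915158, plus strand: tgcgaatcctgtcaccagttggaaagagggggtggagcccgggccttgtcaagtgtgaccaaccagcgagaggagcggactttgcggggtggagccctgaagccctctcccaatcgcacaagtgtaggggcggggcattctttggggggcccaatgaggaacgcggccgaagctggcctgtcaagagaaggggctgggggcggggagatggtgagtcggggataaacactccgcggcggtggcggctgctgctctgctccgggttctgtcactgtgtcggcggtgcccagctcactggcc
The variant CACGCG, searched on both strands, was found once in the MXD3 window and once in one of the MXI1 windows, and in 11.43% of all windows. A match is a string of letters and not a measured binding site.

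The check of the targeted gene was mixed, with more tested probe sets lower than higher in the arrays labelled BRG1. Of 9 SMARCA4 probe sets, 7 were tested, and without UV none was called higher in the arrays labelled BRG1 while 1 was called lower, 215714_s_at, with a mean signal of 213 in BRG1 mock arrays and 539 in vector mock arrays (log2 fold change -1.28, limma adjusted p = 0.0459). After UV 1 was called higher, 212520_s_at, with means of 148 in BRG1 UV arrays and 34.4 in vector UV arrays (2.20, adjusted p = 0.00284). Only 2 of the 7 had a positive log2 fold change without UV, and 2 after UV. By less than 2-fold, 208793_x_at was lower in the arrays labelled BRG1 without UV (-0.77, adjusted p = 0.0373) and after UV (-0.78, adjusted p = 0.0313). Whether any of these probe sets reads the transcript made from the plasmid is not stated in the labels or methods, and the study shows BRG1 in these lines by an immunoblot of the protein. For this reason the groups are named below by their labels and every direction between lines rests on those labels. The lines also differed in markers of cell type: keratin 18 (KRT18) had a log2 fold change of 4.29 in BRG1 mock against vector mock arrays, the leukocyte gene PTPRC was called lower, with means of 7.07 in BRG1 mock and 123 in vector mock arrays, and what these differences contribute to the member results was not tested. The summed signal of the 4 epithelial markers was 4426 to 6100 in BRG1 UV, 3263 to 5117 in BRG1 mock, 262 to 305 in vector UV and 251 to 273 in vector mock arrays. Of these markers 3 were tested and 2 called higher without UV, with a median log2 fold change of 1.37, so the sums do not stand for each marker. Of 4 blood markers 2 were tested, and PTPRC was the only 1 called. Of 12 adrenal cortex markers 10 had a probe set of their own and 3 passed the filter; the defining genes NR5A1, STAR and CYP11A1 did not. Array medians were 21.0 to 25.3, no arrays were identical, and arrays of a group correlated at 0.894 to 0.949 over log2 signals. No detection calls were used, so the size of a fold change is not firm where signals of a group lie below the array medians, as for MYCN, for MYCL in BRG1 UV arrays and for some vector mock arrays at MXD4. Vector mock array 3 stood apart in the ratio of 3′ to 5′ signal, a sign of RNA quality: 2.57 for ACTB against 1.21 to 1.62 in the other 11 arrays.

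A probe set is called here when its limma adjusted p is under 0.05 and its fold is over 2, and it is said to have risen or fallen when the adjusted p alone is under 0.05. In BRG1 mock against vector mock arrays, 4 of the 22 member probe sets were called higher, where 7.69% of all tested probe sets were, and none was called lower (4.3% of all). In BRG1 UV against vector UV arrays, 2 were called higher (7.68% of all) and none lower (5.97% of all). UV against mock gave no member call in either direction in the BRG1-labelled line (0.561% of all higher, 5.81% lower) and 1 call, MYC, lower in the vector-labelled line (3.6% of all lower, 0.665% higher). With the experiment number as a block the last count was 2, with a probe set shared by MXD4 and MIR4800 added as higher. All 6 of these calls between the lines were at MXD1, MXI1 and the probe sets shared by MXD4 and MIR4800, repressor genes of the network. They are not 6 genes: MXD1 and MXD4 were each called at 2 probe sets without UV, and 210778_s_at of MXD4 under both treatments. The repressors MXD3 and MNT had no probe set that passed between the lines. The UV call of the main fit was at the activator MYC.

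**Figure D1:**
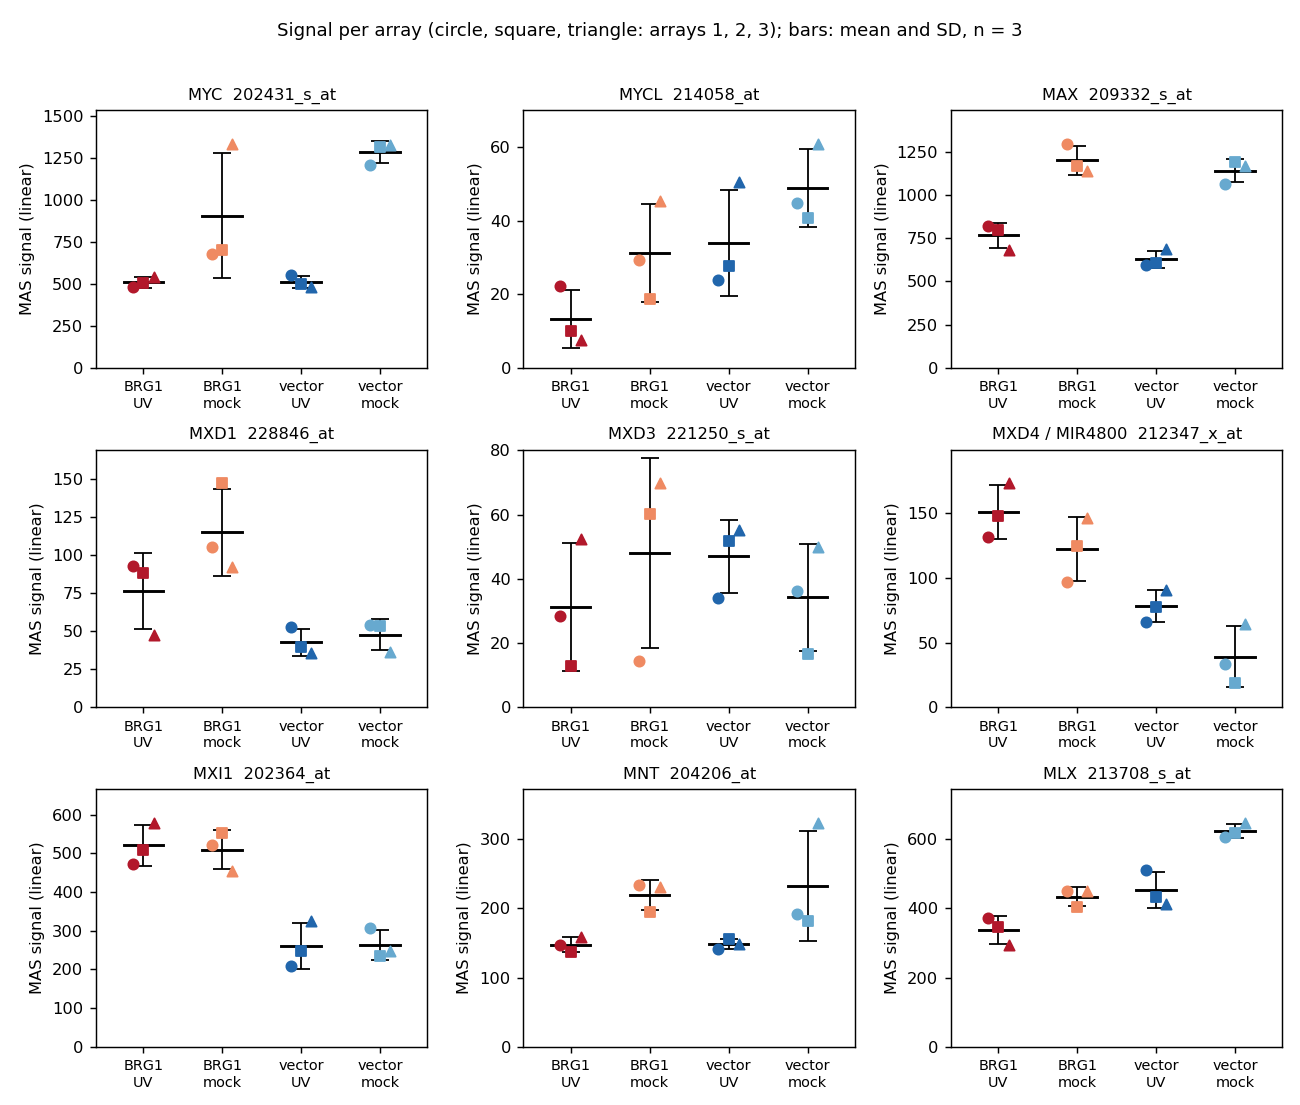
MAS signal on a linear axis in each array for the brightest tested probe set of 9 member genes, with groups from left to right BRG1 UV, BRG1 mock, vector UV and vector mock; symbols mark arrays 1, 2 and 3, and bars give the mean and SD (n = 3). MYC lies between 478 and 553 in all 6 UV arrays and between 677 and 1333 in the 6 mock arrays, while MXI1 lies between 454 and 579 in the BRG1-labelled arrays and between 209 and 326 in the vector-labelled arrays.

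MYC, which encodes the main activator of the network, fell after UV in both lines and the lines did not differ beyond their spread after it. Its only probe set, 202431_s_at, gave signals of 478, 506 and 540.5 in BRG1 UV arrays, against 677, 703 and 1333 in BRG1 mock arrays. In the vector-labelled line the signals were 553, 501 and 478 after UV, against 1209.5, 1315 and 1326 after mock treatment. In each line every UV array lay below every mock array. The fall was 2.52-fold in the vector-labelled line (log2 fold change -1.33 ± 0.20 SE, adjusted p = 0.00179) and 1.69-fold in the BRG1-labelled line (-0.76 ± 0.20, adjusted p = 0.025). The second of these passed the test on its p only, and it no longer passed when any 1 of the BRG1 UV arrays was left out (adjusted p 0.0506 to 0.0768).

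The order of the MYC group means was vector mock (1284 ± 64.3 SD), BRG1 mock (904 ± 371), vector UV (511 ± 38.2) and BRG1 UV (508 ± 31.4). The UV groups did not differ beyond their spread, with a log2 difference of -0.01 between BRG1 UV and vector UV (95% interval -0.45 to 0.44, adjusted p = 0.988). The mock groups overlapped, and their difference of -0.58 ± 0.20 did not pass the test (adjusted p = 0.064). That result depended on BRG1 mock array 3, at 1333: without it the difference was -0.89 (adjusted p = 0.000207). It also depended on the fit: with the experiment number as a block and all arrays kept, the difference of -0.58 passed the adjusted p. It did not pass in 21 of 25 alternatives, and its log2 values ran from -0.89 to -0.41 over the 25. The UV effect in the BRG1-labelled line minus that in the vector-labelled line was 0.57 ± 0.29 and did not pass (adjusted p = 1.00), while it was 0.89 (adjusted p = 0.114) without BRG1 mock array 3 and 0.77 (adjusted p = 0.0184) without the arrays numbered 3 of all 4 groups, a setting chosen after seeing the data.

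MYCL, the MYC relative first found in lung cancer, was dim. Its brighter probe set, 214058_at, read 22.3, 10.1 and 7.65 in BRG1 UV arrays and 23.9, 27.6 and 50.5 in vector UV arrays, groups that did not overlap. The difference of -1.43 ± 0.50 did not pass (adjusted p = 0.0579), but it was called without BRG1 UV array 1 (-1.87, adjusted p = 0.0214), with 1 probe set per gene (adjusted p = 0.0456) and when arrays were scaled to hybridization controls (-1.57, adjusted p = 0.0391). It was also called with the experiment number as a block (adjusted p = 0.0431). Without BRG1 UV array 1 the UV effect in the BRG1-labelled line was -1.73 (adjusted p = 0.0466), against -1.28 (adjusted p = 0.117) with all arrays. In the mock groups the same probe set read 29.3, 18.8 and 45.2 in BRG1 mock and 44.8, 40.7 and 60.9 in vector mock arrays, which overlap. The other MYCL probe set, 215491_at, was between 2.31 and 28.7 in all arrays and passed no test.

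MYCN, the neural counterpart of MYC, was dim at all of its probe sets. The tested probe set, 209757_s_at, read 7.78, 5.70 and 2.30 in BRG1 UV, 4.53, 28.7 and 4.38 in BRG1 mock, 39.0, 12.7 and 24.6 in vector UV, and 12.5, 1.93 and 2.88 in vector mock arrays. The vector UV arrays were the highest group and did not overlap with vector mock arrays, but neither this difference (2.49 ± 1.10, adjusted p = 0.192) nor the one between the lines after UV (-2.30, adjusted p = 0.161) passed. Another MYCN probe set, 234169_at, failed the filter on low signals. It read 23.05, 20.6 and 20.9 in BRG1 UV, 8.40, 12.4 and 3.52 in BRG1 mock, 21.9, 40.9 and 20.6 in vector UV, and 4.49, 2.80 and 3.51 in vector mock arrays. With no filter on any probe set, the UV effect passed in the vector-labelled line (2.90 ± 0.65, adjusted p = 0.021) and not in the BRG1-labelled line (1.59 ± 0.65, adjusted p = 0.196).

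MAX, the obligatory partner of the MYC and MXD proteins, fell after UV by a similar size in both lines. The brightest of its 5 probe sets, 209332_s_at, read 822, 795 and 684 in BRG1 UV arrays, against 1297, 1170.2 and 1139.5 in BRG1 mock arrays. In the vector-labelled line it read 594, 604 and 685 after UV, against 1067, 1190.4 and 1166 after mock treatment. No UV array reached any mock array. The log2 fold changes were -0.65 ± 0.11 in the BRG1-labelled line (1.57-fold, adjusted p = 0.00208) and -0.86 ± 0.11 in the vector-labelled line (1.82-fold, adjusted p = 0.000683). The difference between these effects was 0.21 (95% interval -0.13 to 0.56, adjusted p = 1.00), and the differences between the lines did not pass, at 0.07 without UV (95% interval -0.17 to 0.32) and 0.29 after UV (0.04 to 0.53, adjusted p = 0.0876).

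A second MAX probe set, 209331_s_at, also fell, by 0.88 in the BRG1-labelled line (adjusted p = 0.00638) and by 0.73 in the vector-labelled line (adjusted p = 0.0255) on the log2 scale. The vector result was lost when any vector UV array or vector mock array 1 or 2 was left out (adjusted p 0.0553 to 0.105), and the BRG1 fold passed 2 without BRG1 mock array 3 (-1.01). The probe sets, 208403_x_at and 210734_x_at had values of -0.65 and -0.95 in the BRG1-labelled line and -0.40 and -0.55 in the vector-labelled line and did not pass. Vector mock array 3, the one with the high 3′ to 5′ ratio, held the lowest mock signal of both (77.6 and 139.9), and without it 210734_x_at was called lower in that line (-1.07, adjusted p = 0.0106). The dimmest probe set, 214108_at, had changes of the opposite sign, 0.25 in the BRG1-labelled line and 0.67 in the vector-labelled line, and did not pass. Its log2 signals and those of the other 4 are therefore not interchangeable: over the 12 arrays the MAX probe sets correlated with each other at -0.69 to 0.94.

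**Figure D2:**
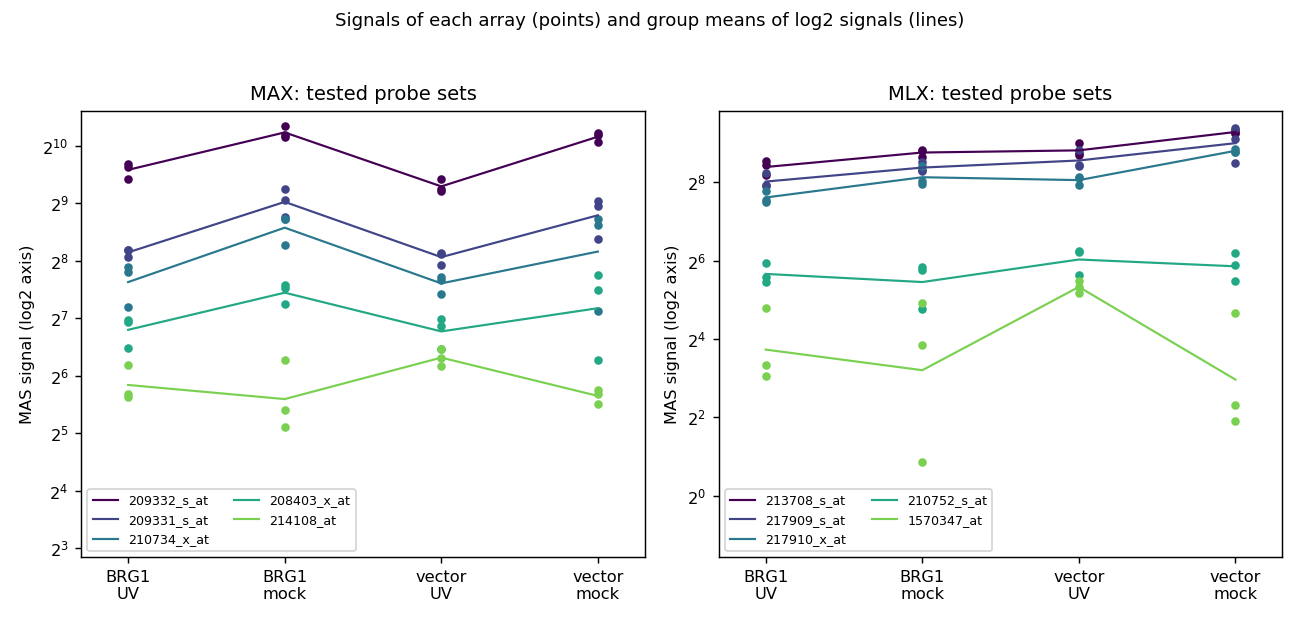
MAS signal on a log2 axis for the 5 tested probe sets of MAX (left) and of MLX (right), with points for the 3 arrays of each group, in the order BRG1 UV, BRG1 mock, vector UV and vector mock, and lines through the group means of log2 signals; heights of different probe sets are not comparable. The 4 brighter MAX probe sets are lower in each UV group than in its mock group while 214108_at is higher, and the 3 brighter MLX probe sets are lower in BRG1-labelled than in vector-labelled groups.

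MXD1, a repressor that replaces MYC on MAX as cells differentiate, was higher in the BRG1-labelled line without UV at both of its tested probe sets. The first, 226275_at, read 96.7, 95.4 and 112 in BRG1 mock arrays, against 51.3, 40.5 and 52.3 in vector mock arrays. The second, 228846_at, read 106, 147 and 92.4 in BRG1 mock arrays, against 54.3, 53.1 and 36.0 in vector mock arrays. The groups did not overlap at either, and the log2 fold changes were 1.08 ± 0.27 (2.12-fold, adjusted p = 0.011) and 1.26 ± 0.32 (2.40-fold, adjusted p = 0.0126). The first fell below a fold of 2 without vector mock array 2 (0.97, adjusted p = 0.0475), with quantile normalization (0.91) and with log2(signal + 16) (0.88), and leaving out BRG1 mock array 2 ended the second call (1.07, adjusted p = 0.0699).

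After UV the MXD1 signals at 226275_at were 68.0, 46.4 and 42.6 in BRG1 UV arrays and 38.3, 29.2 and 31.3 in vector UV arrays. They still did not overlap, but the differences of 0.65 (adjusted p = 0.106) and 0.80 at 228846_at (adjusted p = 0.0965) did not pass. Without BRG1 UV array 3, 228846_at was called higher after UV as well (1.11, adjusted p = 0.0236). At 226275_at MXD1 fell after UV in the BRG1-labelled line (-0.98 ± 0.27, adjusted p = 0.0281), a result lost when BRG1 UV array 2 or 3 or any BRG1 mock array was left out (adjusted p 0.0746 to 0.0969). The value in the vector-labelled line was -0.54 (adjusted p = 0.25). The third probe set, 206877_at, was between 1.49 and 22.4 and was not tested.

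MXD4, another repressor of the MXD family, gave the largest differences between the lines that passed the test. Its 3 probe sets are annotated to both MXD4 and MIR4800, a microRNA gene that RefSeq places inside the MXD4 gene, and their signal cannot be assigned to one of them. At 212347_x_at the signals were 97.01, 125 and 146 in BRG1 mock arrays, against 33.7, 18.9 and 64.8 in vector mock arrays. At 210778_s_at they were 94.8, 86.3 and 98.5 in BRG1 mock arrays, against 30.3, 16.1 and 19.4 in vector mock arrays. Both groups were separate at both probe sets, with log2 fold changes of 1.81 ± 0.36 (3.50-fold, adjusted p = 0.0029) and 2.14 ± 0.39 (4.40-fold, adjusted p = 0.00137). Neither call was lost when any 1 array was left out. Some of the vector mock signals lay below their array medians, so the size of both folds is not firm. With log2(signal + 16) both were still called, at 1.40 for 212347_x_at and 1.54 for 210778_s_at. The stricter filter removed 210778_s_at from the test. The suffix _x of 212347_x_at marks probes that may also bind other transcripts.

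After UV, 210778_s_at read 66.2, 91.8 and 46.5 in BRG1 UV arrays and 40.2, 17.2 and 32.7 in vector UV arrays, and was called higher in the BRG1-labelled line (1.21 ± 0.39, 2.32-fold, adjusted p = 0.037). This call was lost when BRG1 UV array 1 or 2, BRG1 mock array 1 or 2, or vector UV array 2 or 3 was left out (log2 0.86 to 1.32, adjusted p 0.0529 to 0.149). It was also lost with no filter (adjusted p = 0.0621), in a fit on the compared arrays only (adjusted p = 0.0712), when scaled to hybridization controls (1.07, adjusted p = 0.0612) and with log2(signal + 16) (0.87). At 212347_x_at the UV signals were 132, 148 and 173 in BRG1 UV arrays and 66.1, 77.2 and 90.8 in vector UV arrays. They did not overlap, and the difference of 0.95 ± 0.36 did not pass (adjusted p = 0.078). The same probe set was higher in every vector UV array than in every vector mock array, by 1.16 ± 0.36, which did not pass (adjusted p = 0.0634). It was called with the experiment number as a block (adjusted p = 0.012). It was also called in fits that left out vector mock array 3 (1.62, adjusted p = 0.00622) or the arrays numbered 3 (adjusted p = 0.00459), or that used the stricter filter (adjusted p = 0.0451). Its UV effect in the BRG1-labelled line was 0.31 (adjusted p = 0.666). The third probe set, 212346_s_at, was between 2.87 and 52.4 and was not tested.

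MXI1, also known as MXD2, was about 2-fold higher in the BRG1-labelled line under both treatments. Its probe set 202364_at read 472, 509.8 and 579 in BRG1 UV arrays, against 209, 248 and 326 in vector UV arrays. It read 521, 553 and 454 in BRG1 mock arrays, against 306, 234 and 248 in vector mock arrays. The lines did not overlap under either treatment. The log2 fold changes were 1.01 ± 0.18 after UV (adjusted p = 0.000911), which was called, and 0.96 ± 0.18 without UV (adjusted p = 0.0015), which lay just under the 2-fold limit and was not, although it was called without BRG1 mock array 3 (1.04) or vector mock array 1 (1.08). The UV result fell below 2-fold, with its adjusted p still under the threshold, without BRG1 UV array 3 (0.93) or vector UV array 1 (0.87) or 2 (0.99), with quantile normalization (0.94), with log2(signal + 16) (0.97) and when scaled to hybridization controls (0.87). UV itself left MXI1 within its spread, with 0.03 (95% interval -0.35 to 0.41) in the BRG1-labelled line and -0.02 (-0.40 to 0.36) in the vector-labelled line.

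MXD3, the family member associated with dividing cells, had no change that passed. At 221250_s_at it read 28.5, 12.9 and 52.4 in BRG1 UV, 14.3, 60.2 and 69.7 in BRG1 mock, 34.0, 51.6 and 55.3 in vector UV, and 36.1, 16.7 and 49.8 in vector mock arrays. All groups overlapped and no comparison passed.

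MNT, the most widely expressed antagonist of MYC, had no difference between the lines that passed. The brighter probe set, 204206_at, read 147, 137 and 158 in BRG1 UV and 142, 155 and 149 in vector UV arrays, a difference of -0.01 (95% interval -0.46 to 0.44). It read 234, 195 and 230.3 in BRG1 mock and 192, 181 and 324 in vector mock arrays, a difference of -0.03 (-0.48 to 0.42). In each line all UV arrays lay below all mock arrays, by 0.57 in the BRG1-labelled line (adjusted p = 0.0929) and by 0.59 in the vector-labelled line (adjusted p = 0.0973), and neither passed. The highest value, 324, was from vector mock array 3. The dimmer probe set, 236749_at, had values of 0.33 and 0.79 in these comparisons and correlated with the first at -0.57 over the 12 arrays.

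MLX, the MAX-like partner, was lower in the BRG1-labelled line and fell after UV at some of its tested probe sets, in each case by less than 2-fold. At its brightest probe set, 213708_s_at, the signals were 373, 346 and 293 in BRG1 UV arrays, against 512, 433 and 413 in vector UV arrays. They were 449, 403 and 450.3 in BRG1 mock arrays, against 608, 617 and 647 in vector mock arrays. The lines were separate under both treatments, with log2 fold changes of -0.42 ± 0.13 after UV (adjusted p = 0.0338) and -0.52 ± 0.13 without UV (adjusted p = 0.0123). At 217910_x_at the difference without UV was -0.67 ± 0.16 (adjusted p = 0.0068) and after UV -0.44 (adjusted p = 0.0554). At 217909_s_at the values were -0.62 without UV (adjusted p = 0.0522) and -0.54 after UV (adjusted p = 0.0854).

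The UV effect on MLX passed at 217910_x_at in both lines, with -0.52 in the BRG1-labelled line (adjusted p = 0.0414) and -0.75 in the vector-labelled line (adjusted p = 0.00938), and at 213708_s_at in the vector-labelled line only (-0.47, adjusted p = 0.0426; -0.37 in the BRG1-labelled line, adjusted p = 0.0874). These small changes depended on single arrays. At 213708_s_at the difference between the lines was lost without BRG1 mock array 2 (-0.47, adjusted p = 0.0593) or, after UV, without BRG1 UV array 2 or 3 or vector UV array 1 or 2 (-0.33 to -0.45, adjusted p 0.065 to 0.146). Its UV effect in the vector-labelled line was lost in 8 of the 12 fits that left out 1 array (adjusted p 0.0595 to 0.138), vector mock array 3 among them, and that of 217910_x_at in the BRG1-labelled line in 9 (adjusted p 0.0506 to 0.129). The fall of 217910_x_at in the vector-labelled line was lost in none. The remaining tested probe sets, 210752_s_at and 1570347_at, passed no comparison, and 231401_s_at was not tested. Their UV effects had the opposite sign. At 210752_s_at they were 0.21 in the BRG1-labelled and 0.17 in the vector-labelled line. At 1570347_at they were 0.53 in the BRG1-labelled and 2.36 in the vector-labelled line. Over the 12 arrays the tested MLX probe sets correlated with each other at -0.30 to 0.91.

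**Figure D3:**
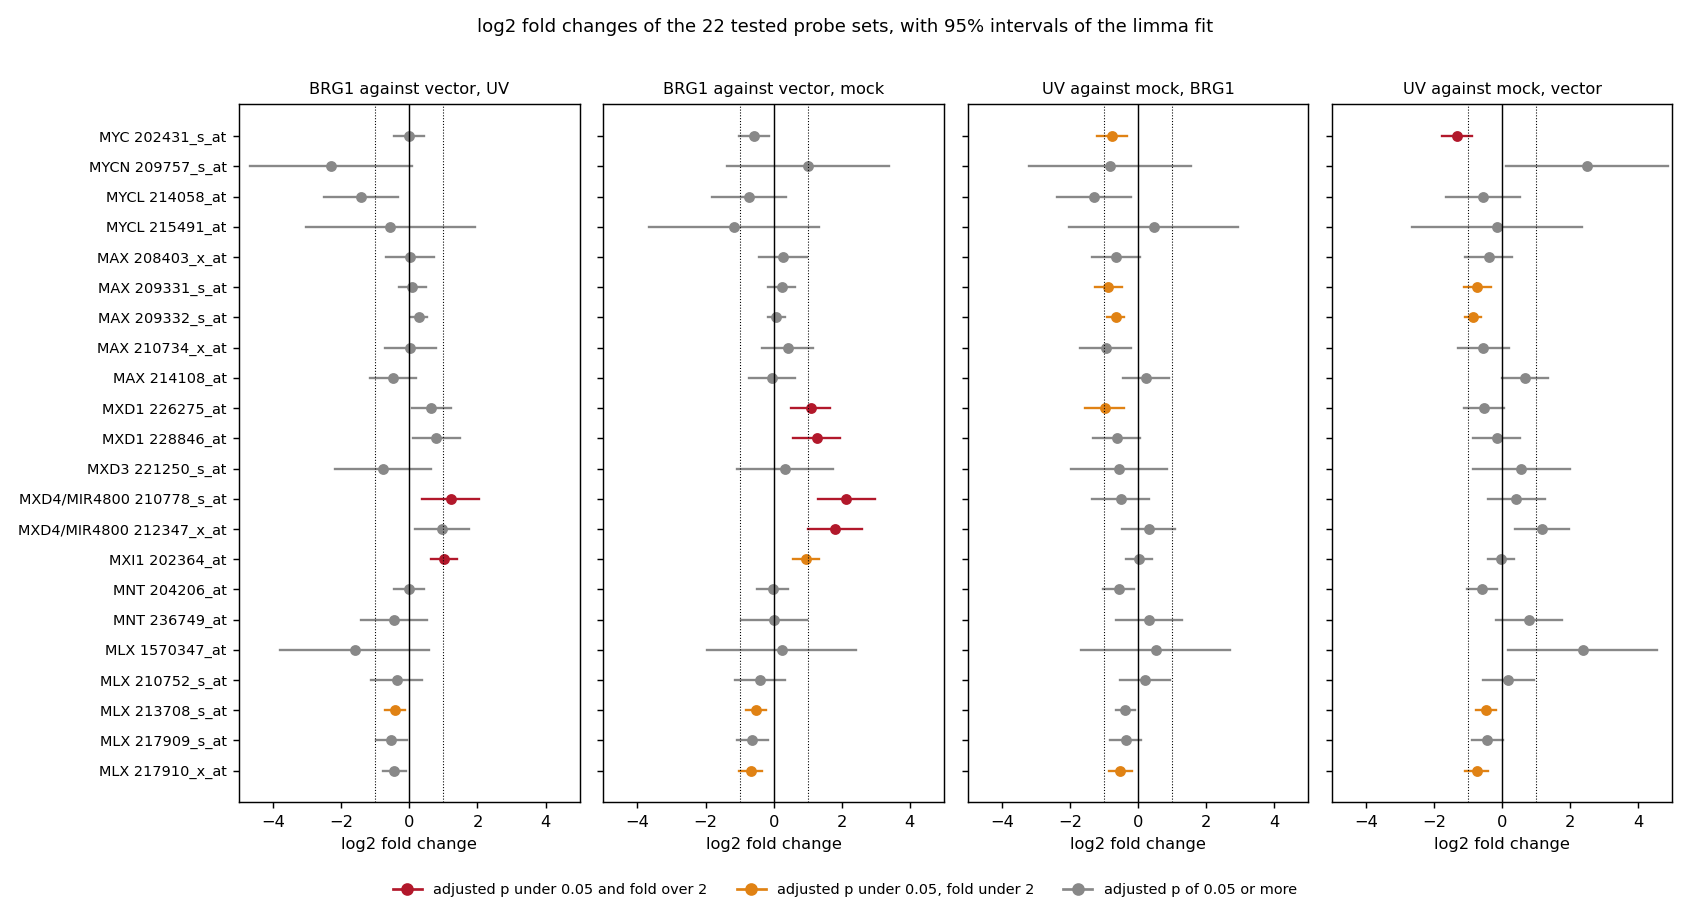
Log2 fold changes (points) and 95% intervals (lines) of the 22 tested member probe sets in BRG1 UV against vector UV, BRG1 mock against vector mock, and UV against mock in the BRG1-labelled and vector-labelled lines; red marks an adjusted p under 0.05 with a fold over 2, orange an adjusted p under 0.05 alone, and dotted lines a fold of 2. The red points between the lines are all at MXD1, MXD4 with MIR4800, or MXI1, and the only red point for UV is MYC in the vector-labelled line.

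More member signals fell than rose after UV. With the adjusted p alone, 5 of the 22 probe sets fell in the BRG1-labelled line (8.95% of all tested probe sets) and 5 in the vector-labelled line (6.06% of all), and none rose (5.02% and 3.42% of all). The falls were at MYC, MAX, MXD1 and MLX in the BRG1-labelled line, and at MYC, MAX and MLX in the vector-labelled line. MAX and MLX held 5 tested probe sets each, so the counts and medians here are of probe sets and not of genes. In 10 of 22 the BRG1 UV arrays lay wholly below the BRG1 mock arrays (19.9% of all), and in 7 of 22 the vector UV arrays lay wholly below the vector mock arrays (15.9% of all). UV arrays lay wholly above mock arrays in 0 of 22 in the BRG1-labelled line (13.3% of all). In the vector-labelled line they did so in 4 of 22 (12.2% of all). These were MYCN 209757_s_at, MAX 214108_at, 212347_x_at of MXD4 with MIR4800, and MLX 1570347_at. The median log2 change over the 22 was -0.53 in the BRG1-labelled line and -0.28 in the vector-labelled line, beside -0.06 and -0.01 over all tested probe sets. Scaling each array to its hybridization controls, in place of the authors' scaling to a common mean, shifted the median over all probe sets to -0.45 in the BRG1-labelled line and -0.27 in the vector-labelled line. That scaling then called 6 member probe sets lower in the BRG1-labelled line (1 each of MYC, MYCL and MXD1, and 3 of MAX) and 3 in the vector-labelled line (MYC, MAX and MLX). The UV falls above are therefore relative to the mean signal of the array.

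No member probe set passed the test of a different UV effect between the lines (0.0123% of all probe sets were higher and 0.0368% lower with limma's adjusted p). At an unadjusted p under 0.05 none of the 22 passed either, where 4.91% of all did. Between the lines, MYC, MYCN, MYCL, MAX, MXD3 and MNT had no probe set that passed in the main fit, without UV or after UV. With the experiment number as a block, MYC passed the adjusted p without UV, and MYCL 214058_at was called lower after UV (-1.43, adjusted p = 0.0431). In the main fit with the adjusted p alone, 5 member probe sets were higher (11.3% of all) and 2 lower (9.42% of all) without UV. The 5 were at MXD1, MXI1 and the probe sets shared by MXD4 and MIR4800, and the 2 were both at MLX. After UV 2 member probe sets were higher (11.6% of all) and 1 lower (11.8% of all). The groups did not overlap for 5 higher (18.5% of all) and 2 lower member probe sets (17% of all) without UV, and for 4 higher (18.6% of all) and 6 lower (20.4% of all) after UV. After UV the shares of member probe sets called or separated were thus near those of all probe sets. The comparisons share arrays and are not independent of each other.

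Genes that MYC is known to activate had mostly negative fold changes between the BRG1-labelled and vector-labelled lines, with UV and without. Of 45 such genes 41 had a tested probe set of their own, and 35 of the 41 had a negative log2 fold change in BRG1 mock against vector mock arrays (49.9% of 13834 genes did). With the adjusted p alone 20 were lower and 1 was higher, against 12.2% and 14.4% of all genes, and the median was -0.68 beside 0.00 over all genes. After UV 34 of the 41 were negative, 18 were lower and 2 higher (14.6% and 15.4% of all genes), with a median of -0.57 beside -0.02. This list and those below were chosen with earlier results of these data known, so their shares are not independent evidence of a direction. Only 3 of the 41 (7.32%) were called lower under each treatment, beside 5.09% of all genes without UV and 6.61% after UV. The count was 5 without UV and 4 after UV without the arrays numbered 3, and 7 after UV with scaling to hybridization controls. SLC7A5, a transporter of large neutral amino acids, had a mean signal of 158 in BRG1 mock and 825 in vector mock arrays (-2.46, adjusted p = 0.000335). CDC25A, a phosphatase that starts DNA replication, had 53.7 in BRG1 mock and 217 in vector mock arrays (-1.91, adjusted p = 0.0349) and was called lower after UV, with 9.55 in BRG1 UV and 127 in vector UV arrays. The BRG1 UV signals lay below their array medians, and no fold is given for them. SRM, which makes spermidine, was called without UV (-1.02, adjusted p = 0.0223), and POLR1B, a subunit of RNA polymerase I, after UV (-1.09, adjusted p = 2.59e-05). CDC25A and SRM were no longer called in the mock comparison without vector mock array 3, although the count stayed at 3.

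Between treatments few of the 41 genes were called. In the BRG1-labelled line only CDC25A was called, lower (adjusted p = 0.0103), where 6.27% of all genes were called lower and 0.535% higher. With the adjusted p alone 7 were higher and 3 lower there, and 12 of 41 had a negative UV effect (47.7% of all genes), with a median of 0.29. In the vector-labelled line none was called (3.93% of all genes lower and 0.528% higher), 4 were higher and 2 lower with the adjusted p alone, and 14 of 41 were negative (48.0% of all genes), with a median of 0.14. With the replicate block 15 were higher and 2 lower in the vector-labelled line. With scaling to hybridization controls 31 in the BRG1-labelled line and 28 in the vector-labelled line were negative, with medians of -0.10 and -0.12 and 3 and 1 called lower in those lines, so the direction of this list after UV is not settled.

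Of 7 genes that MYC is known to repress, 4 were called higher in the BRG1-labelled line without UV (9.05% of all genes) and 5 after UV (9.56% of all genes), and none was called lower. Of the 7, 1 had a negative fold change without UV and 2 after UV. THBS1, an extracellular inhibitor of blood vessel growth, had a mean signal of 1013 in BRG1 mock and 7.55 in vector mock arrays (adjusted p = 2.6e-05), where its signals were below the array medians, so that no fold is given. CDKN2B, the cell cycle inhibitor p15, had 1214 in BRG1 mock and 50.2 in vector mock arrays (4.61), and the stress gene GADD45A had 708 in BRG1 mock and 55.6 in vector mock arrays (3.61). NDRG1, a differentiation gene, was at 77.0 in BRG1 mock and 28.7 in vector mock arrays (1.45, adjusted p = 0.00306). CDKN1A, the inhibitor p21, was called after UV (1.42, adjusted p = 0.00717), with 321 in BRG1 UV and 122 in vector UV arrays, and without vector mock array 3 it was also called in the mock comparison (1.17). The study singled out GADD45A and CDKN1A on these same samples, so this list is not independent evidence of its direction. After UV, CDKN1A (1.57) and GADD45A (1.52) rose in the BRG1-labelled line and CDKN1B, the inhibitor p27, fell there (-1.06), while CDKN2B rose in the vector-labelled line (1.40), as CDKN1A did with the replicate block (1.07, adjusted p = 0.0218) or without vector mock array 3 (1.31).

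**Figure D4:**
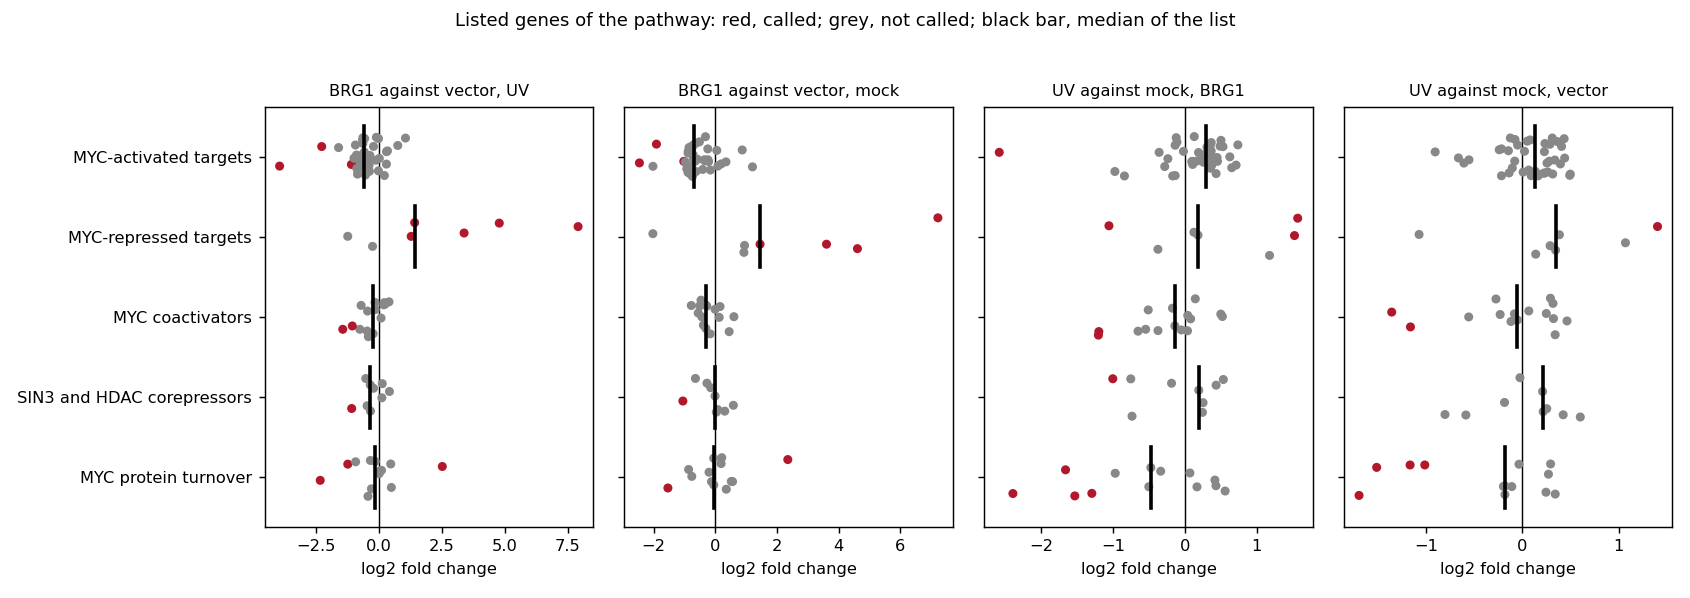
Log2 fold changes of the tested genes of 5 pathway lists (1 point per gene, vertical position within a row is random) in BRG1 UV against vector UV, BRG1 mock against vector mock, and UV against mock in each line; red points are called, grey points are not, and black bars are list medians. MYC-activated targets centre at -0.57 after UV and -0.68 without UV between the lines, and MYC-repressed targets at 1.42 and 1.45.

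The proteins that set MYC's lifetime included genes that moved with the line and genes that moved with UV. SKP2, a ubiquitin ligase subunit that targets MYC and the inhibitor p27, was lower in the BRG1-labelled line, with a mean of 292 in BRG1 mock and 846 in vector mock arrays (-1.54) and 149 in BRG1 UV and 747 in vector UV arrays (-2.33). FBXO32, a ligase subunit active in muscle wasting, was higher (2.35 without UV, 2.52 after UV), and the mitotic kinase PLK1 was called lower after UV (-1.23, adjusted p = 0.0119). Of 13 tested genes of this list, 4 (30.8%) were called lower after UV in both lines, beside 6.27% of all genes in the BRG1-labelled line and 3.93% in the vector-labelled line. FBXW7, the subunit that recognises phosphorylated MYC, fell by 2.39 in the BRG1-labelled line and by 1.69 in the vector-labelled line, and GSK3B, the kinase that marks MYC for it, fell by 1.53 in the BRG1-labelled line and by 1.51 in the vector-labelled line. The others were BTRC (-1.66 in the BRG1-labelled and -1.01 in the vector-labelled line) and the kinase AURKA (-1.29 and -1.16 in those lines). Without the arrays numbered 3, BTRC was no longer called in the vector-labelled line and FBXO32 no longer after UV.

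Called changes of cofactors and partners after UV ran in the same direction in both lines. The paralogous acetyltransferases EP300 and CREBBP fell in the BRG1-labelled line (-1.20 and -1.20) and in the vector-labelled line (-1.35 and -1.16), as 2 of 15 tested MYC coactivators (13.3%, beside the same 6.27% and 3.93% of all genes). MGA, which pairs with MAX, was the only gene called after UV of 5 tested partners and E-box factors (20%), with a mean of 60.4 in BRG1 UV and 158 in BRG1 mock arrays (-1.40, adjusted p = 0.00214), and 62.3 in vector UV and 178 in vector mock arrays (-1.51, adjusted p = 0.00232). SIN3A, the scaffold through which MXD proteins repress, was called lower in the BRG1-labelled line, with a mean of 83.4 in BRG1 UV and 165 in BRG1 mock arrays (adjusted p = 0.00341), and fell by less than 2-fold in the vector-labelled line (-0.80, adjusted p = 0.0183). Between the lines, the deacetylase HDAC2 was lower in the BRG1-labelled line under both treatments, with 1294 in BRG1 mock and 2678 in vector mock arrays (-1.05), and 1475 in BRG1 UV and 3116.5 in vector UV arrays (-1.08). WDR5 (-1.43, adjusted p = 0.00569) and CCNT1 (-1.05, adjusted p = 0.000115), coactivators of MYC, were called lower after UV. CCNT1 was not called there without the arrays numbered 3.

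ARRDC4, a target of MLX with MLXIP, was higher in the BRG1-labelled line (1.17 without UV and 1.37 after UV), and the other target listed, TXNIP, was not called in any comparison. The noncoding neighbours PVT1, beside MYC, and MYCNOS, opposite MYCN, were not called either. No gene of these lists passed the test of a different UV effect between the lines in the main fit, but 4 did without the arrays numbered 3 (SKP2, CDKN2B, CDKN1B and GADD45A). CDKN1B also passed it with the experiment number as a block (-1.20, adjusted p = 0.00238).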

How the data were processed

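Total RNA of 12 cultures (4 groups of 3) was hybridized to Affymetrix U133 Plus 2.0 arrays. The authors computed a MAS signal intensity for each probe set with default settings and scaled every array to a mean target of 125; the deposited values are these linear signals, with no detection calls used here and the sources used here name no MAS version. The scale was checked: the mean after trimming 2% at each end was 125 in every array. Groups came from the sample titles. Experiment numbers in the titles were checked as a pairing: deviations of same-numbered vector UV and vector mock arrays correlated at 0.108, 0.102 and 0.275, all over 0.1, which was not so for the other comparisons. Vector mock array 1 correlated with vector UV array 2 at 0.109, so the check did not tell the numbers 1 and 2 apart. The members and the gene lists were chosen with earlier results of these data known.

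Signals were taken to log2 and fitted with limma 3.58.1 in R 4.3.3 (lmFit and eBayes with trend, 1 mean per group over all 12 arrays), without array controls (62 probe sets) and without probe sets under their array's median in more than 9 arrays. P-values were adjusted by Benjamini-Hochberg over all 32622 tested probe sets. A call needed an adjusted p under 0.05 and a fold over 2; for the difference of UV effects the adjusted p alone. Of the probe sets, 41097 were annotated to 1 gene, 1801 to several and 11777 to none. Lists were read by each gene's brightest tested probe set with no other gene. The text names every member, up to 4 called genes with the largest change per list and comparison, and the 5 genes closest in pattern to MYC and to MXD4 by Pearson's r. The method was tested first on simulated data with independent noise in each array. That simulation did not cover the structure shared by the arrays numbered 3, which is described below. With 3 arrays per group their number limits the precision. Alternatives were other filters, scalings, an added constant of 16, a fit without trend, the methods' t-test, a block on the experiment number, 1 probe set per gene and leaving out each array; scaling to 18 hybridization control probe sets and leaving out all arrays numbered 3 were chosen after seeing the data.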

Additional observations from a re-analysis of the deposited data

How the results depend on the processing

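Of the member probe sets, 4 were called in BRG1 mock against vector mock, 2 in BRG1 UV against vector UV, 0 in UV against mock of the BRG1-labelled line, 1 in UV against mock of the vector-labelled line and 0 for the difference of UV effects. In the mock comparison of the lines the count was 1 with the stricter filter, 2 with the brightest probe set per gene and 0 with the methods' t-test after Benjamini-Hochberg. In the UV comparison of the lines it was 1 with no filter, the stricter filter or a fit on the compared arrays only (MXI1), 1 with quantile normalization (MXD4 with MIR4800), 1 with scaling to hybridization controls (MYCL 214058_at, lower), and 0 with log2(signal + 16) or the adjusted t-test. UV in the BRG1-labelled line gave 6 when scaled to hybridization controls and 2 without the arrays numbered 3. UV in the vector-labelled line gave 2 with no filter, the stricter filter, the brightest probe set per gene, or without the arrays numbered 3, 3 when scaled to hybridization controls, and 0 with the adjusted t-test. The difference of UV effects gave 1 without the arrays numbered 3, which was MYC. Leaving out 1 array gave 3 to 5, 0 to 2, 0 to 2, 1 to 3 and 0 to 0 calls in the order of the first sentence. The lowest count after UV between the lines came without vector UV array 2, the highest in the BRG1-labelled line without BRG1 UV array 1 and the highest in the vector-labelled line without vector mock array 3. The cause was not tested.

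Deviations from the group means correlated at 0.02 to 0.29 between arrays of the same experiment number (11 of 18 pairs over 0.1) and at -0.22 to 0.14 between others, and 9 of 12 arrays correlated best with an array of their own number. Only between vector UV and vector mock was every pair over 0.1, so only there were the numbers taken to pair the arrays. Even there, vector mock array 1 correlated with vector UV array 2 at 0.109, and vector mock array 2 with vector UV array 1 at 0.095. The check therefore did not tell the numbers 1 and 2 apart. The arrays numbered 3 nevertheless correlated with each other in every pair of groups (0.18 to 0.29), and negatively with the arrays of other numbers. Structure shared by these arrays therefore ran through all comparisons, and the main fit did not model it. With the replicate block the count in UV against mock of the vector-labelled line was 2, adding the probe set 212347_x_at shared by MXD4 and MIR4800 (1.16, adjusted p = 0.012). In BRG1 UV against vector UV, MYCL 214058_at was added (-1.43, adjusted p = 0.0431), and MYC in BRG1 mock against vector mock passed the adjusted p (-0.58, adjusted p = 0.023). The block also called CDKN1B for the difference of UV effects (-1.20, adjusted p = 0.00238), and with the adjusted p alone it put 32 of the 41 MYC-activated targets lower without UV and 29 after UV between the lines, and 19 higher after UV in the BRG1-labelled line.

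For the member results that passed the adjusted p, and for MYC in each comparison, 452 of the alternative values kept their side of the threshold, 101 no longer passed, 5 newly passed and none reversed. Other members that were newly called in some fits (MYCL, MXD4 with MIR4800, MAX 210734_x_at, MYCN 234169_at and MXD1 228846_at) are not in this tally. The fall of MYC after UV in the vector-labelled line was called in 24 of 25 alternatives, with a log2 fold change of -1.59 to -1.26, and was lost with the adjusted t-test only.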

Other observations

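Among 13833 other genes, those whose log2 signals followed MYC most closely over the 12 arrays were BARD1 (Pearson r 0.95), LRCH1 (0.95), CEP152 (0.95), NUAK1 (0.94) and GARRE1 (0.93). The closest to the probe set 212347_x_at, shared by MXD4 and MIR4800, among 13834 genes, were DVL3 (0.98), SPINK2 (0.96), HLA-F (0.95), CUL7 (0.95) and LASP1 (0.94). The 12 points share 4 group means, and these are descriptions without a test.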
